A study of Mus musculus with 12 samples.

Results

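TLR-2 and CD86 are both displayed on B cells. TLR-2 is a receptor for bacterial lipopeptides, which signals through the adaptor MyD88 to NF-kB, and Pam2CSK4 is a synthetic lipopeptide that binds it. CD86 is known as the B7 ligand of CD28 on T cells, and an antibody that cross-links it can also deliver a signal into the B cell. The question addressed here was where the response to both signals departed from the sum of the responses to each alone. This interaction was computed as the log2 difference between TLR2.CD86 (anti-CD86 with Pam2CSK4) and Pam2CSK4, minus the log2 difference between anti-CD86 and unstimulated cells. A value of 0 is additive, a positive value is above the sum and a negative value is below it. It was measured with 8 of the 12 arrays of the series, which were 2 each of unstimulated cells, Pam2CSK4, anti-CD86 and TLR2.CD86.

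All arrays carried RNA of resting B (RB) cells from spleens of BALB/c mice, which the labels give as female and 6 weeks old, with 4 h of stimulation. RB cells had been isolated by depletion of CD43-positive cells, and anti-CD86 was a biotinylated antibody cross-linked with streptavidin. The other 4 arrays, 2 of anti-CD40 and 2 of anti-CD40 with Pam2CSK4, came from the same kind of cells and entered the fit for the spread and the slide difference. An isotype control was not analysed here. The arrays lay on 2 slides. Both unstimulated arrays were on slide 1, and Pam2CSK4, anti-CD86 and TLR2.CD86 each had replicate 1 on slide 1 and replicate 2 on slide 2, so the interaction was fitted with the slide as a block and cannot be computed within slide 2. Between 46.7% and 55.9% of spots on the 8 arrays read well above background. Anti-CD40 replicate 2, which enters the fit on slide 2, stood apart at 60.6%. Its median signal was 51.2, against 30.9 to 33.5 on the other arrays of slide 2. All 12 markers fixed for B cells were well above background on every array, and their summed signal, in multiples of the 75th percentile of the array, was 443 to 560 over the 8 arrays. T cell markers (11 or 12 of 12 well above background) summed to 34.0 to 50.2, NK cell markers (9 or 10 of 10) to 14.7 to 24.3 and myeloid markers (13 or 14 of 14) to 347 to 461. Each of these 3 sums was highest, among the 4 conditions, in unstimulated cells. Their part in the results below was not tested. Such sums weigh the brightest markers most. Among these, Cd79b of the B cell and S100a9 of the myeloid list both read 7.39 in log2 units on anti-CD86 replicate 2. These signals may lie at the ceiling of the scanner, so differences in the B cell and myeloid sums may be compressed.

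With limma and Benjamini-Hochberg adjustment, 74 of the 31602 probes tested (0.234%) departed from the sum at an adjusted p under 0.05, 41 above it (0.130%) and 33 below it (0.104%). The sizes were 0.59 to 6.65 above and 0.59 to 5.95 below on the log2 scale, with a median of 1.04 and -1.18. Over all probes tested the median was 0.04 and the median absolute size 0.18. The called probes were selected on this same value, so their larger size follows from the selection. Noncoding RNA probes of the array made up 25 of the 41 and 15 of the 33. They passed in 0.475% of 8427 tests and the other probes in 0.147% of 23175. Of the 15 below the sum, 11 share stretches of sequence and are described below, so these rates do not count separate transcripts. The other probes also hold noncoding RNAs, such as Rmrp and LOC236598. At an unadjusted p under 0.05 there were 5130 (16.2%). With only the 8 arrays in the fit limma called 0 probes (5348 at an unadjusted p under 0.05), and the adjusted p of the 74 was then 0.0612 to 0.163, with the sign kept in 74 of 74. On slide 1 alone it also called 0 probes (3876 at an unadjusted p under 0.05; adjusted p of the 74 from 0.183 to 0.362), again with 74 of 74 signs kept. Without the slide block it called 6, all among the 74, which were Med1, the noncoding RNA probe u192973, and 4 satellite probes. With median normalization, which lowered every interaction by the same amount (-0.22), 22 of the 74 were still called, and among the named genes these were Olfr259, Med1, Tm4sf4, Cpxm2 and Rab5c. The count was 11 without unstimulated replicate 2, 21 without unstimulated replicate 1, 33 and 32 without Pam2CSK4 replicate 1 and 2, 44 and 23 without TLR2.CD86 replicate 1 and 2, 26 and 72 without anti-CD86 replicate 1 and 2, and 38 without anti-CD40 replicate 2. Of the 74, 9 stayed called whichever of these arrays was left out. They were Med1, Rmrp and the noncoding RNA probes u192973 and u199188 above the sum, and Rab5c, the noncoding RNA probe u182032 and the satellite probes u180980, u192892 and u201781 below it.

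The departures had few shapes. Counting a fitted difference of 0.5 log2 units from unstimulated cells as higher or lower, 29 of the 41 probes above the sum were lower with anti-CD86 alone, and the other 12 were within 0.5. In 12 of the 41 both single signals and TLR2.CD86 were lower, so that the combination was less low than the sum. In 5 anti-CD86 was lower, Pam2CSK4 was near the unstimulated level and TLR2.CD86 was higher, and in 4 more Pam2CSK4 was higher too. Of the 33 below the sum, 13 were higher in all 3 stimulated conditions. In 10 of the 33 both single signals were near the unstimulated level and TLR2.CD86 was lower. The unstimulated arrays enter both single differences and, with the opposite weight, the interaction, so these shapes and the interaction are not independent measurements.

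**Figure D1:**
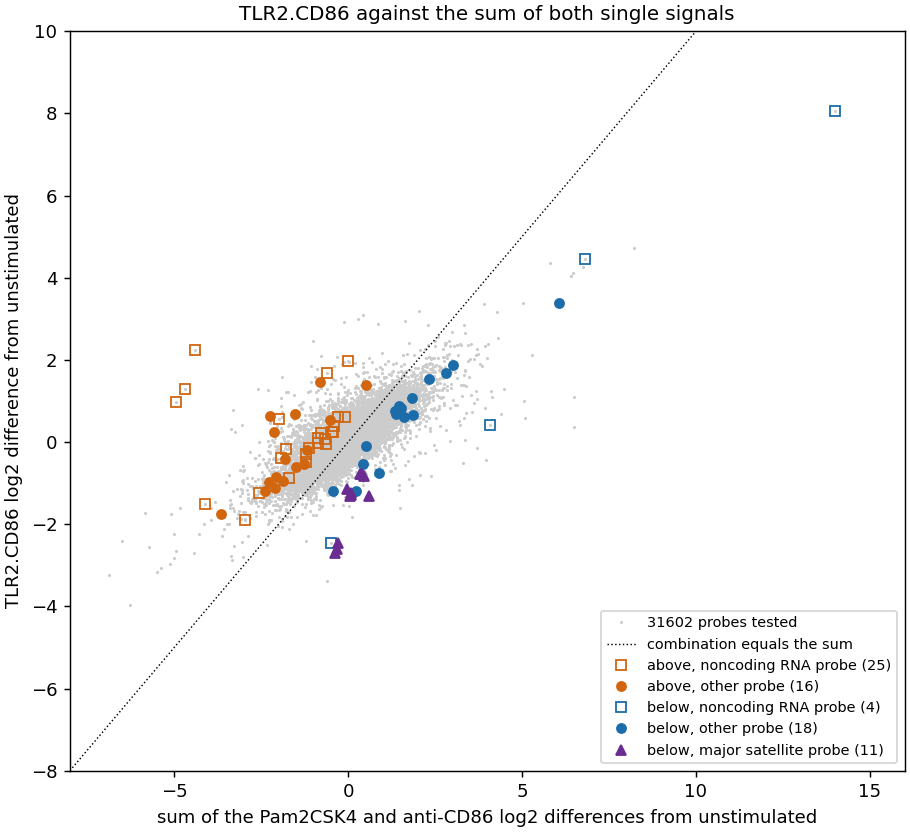
Each point is a probe, with the sum of the Pam2CSK4 and anti-CD86 log2 differences from unstimulated cells on the x axis and the TLR2.CD86 log2 difference on the y axis (both from the slide fit). Grey points are the 31602 probes tested, orange marks the 41 called above the sum and blue and purple the 33 called below it, with squares for noncoding RNA probes and triangles for the 11 major satellite probes. The triangles lie below 0 on the y axis at a sum near 0, whereas most of the other points below the line lie where the sum was above 0.

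Mouse centromeres are embedded in tandem repeats, of which the major (gamma) satellite fills the pericentromeric heterochromatin and the minor satellite lies at the centromere itself. RNA can be transcribed from both strands of these repeats. Among the 33 probes below the sum, 11 noncoding RNA probes were linked by shared stretches of at least 16 bases, and they are called major satellite probes here. That name rests on the known sequence of the repeat, since the annotation of the array does not name it and the probes were not aligned to a genome, and the letters are therefore shown. The capitals in u180980 and u192892 mark the 18 bases that these probes share on opposite strands, and those in u205730 mark the 13 bases it shares with u192892 on the same strand.
u180980: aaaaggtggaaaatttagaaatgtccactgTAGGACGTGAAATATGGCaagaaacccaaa
u192892: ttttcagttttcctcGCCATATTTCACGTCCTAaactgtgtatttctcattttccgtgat
u205730: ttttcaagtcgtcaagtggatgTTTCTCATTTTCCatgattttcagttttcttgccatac

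A search of the array for probes that share 16 bases with any of the 11 on either strand found 21, and all 21 were tested. This family was assembled from called probes after their values had been seen, and its members overlap in sequence, so they are not separate measurements of separate transcripts and their counts are a description. In the orientation of u180980 there were 18 probes, of which 8 were called and 15 had an interaction below 0 (range -1.90 to 0.38, median -1.13). In the orientation of u192892 there were 3, and all 3 were called (-2.32, -2.29 and -2.18).

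The opposite-strand probes behaved almost alike. The log2 signal of u205730, in which 0 is the 75th percentile of its array, was 4.49 and 4.53 in unstimulated cells, 4.70 and 4.71 with Pam2CSK4, 3.94 and 4.03 with anti-CD86, and 1.70 and 1.98 with TLR2.CD86. Both TLR2.CD86 arrays were below all 6 others. The interaction was -2.32 (SE 0.15, limma adjusted p = 0.00634). For u201781 the arrays read 4.37 and 4.46 unstimulated, 4.65 and 4.65 with Pam2CSK4, 3.87 and 4.02 with anti-CD86, and 1.72 and 1.97 with TLR2.CD86. For u192892 they read 4.25 and 4.38, 4.63 and 4.53, 3.75 and 3.75, and 1.78 and 1.91 in the same order, and its interaction was -2.18 (SE 0.11, adjusted p = 0.00409). In these 3 probes the fitted log2 difference from unstimulated cells was -2.70 to -2.45 with TLR2.CD86, 0.17 to 0.27 with Pam2CSK4 alone and -0.55 to -0.51 with anti-CD86 alone. They were called in 18 or 19 of 22 alternative settings, u192892 and u201781 also whichever of the 9 single arrays tried was left out.

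Probes of the other orientation departed less. The signal of u180980 was 1.68 and 1.72 in unstimulated cells, 2.07 and 2.53 with Pam2CSK4, 1.36 and 1.88 with anti-CD86 and 0.42 and 0.83 with TLR2.CD86. Here too both TLR2.CD86 arrays were the lowest, and the interaction was -1.37 (SE 0.07, adjusted p = 0.00455). The largest departure in this orientation was that of u192890 at -1.90 (SE 0.13, adjusted p = 0.00672), from 1.90 and 1.94 unstimulated to 0.51 and 0.95 with TLR2.CD86. Of its 10 uncalled probes 5 had values of -1.26 to -0.69, and the other 5 lay between -0.25 and 0.38.

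Near-identical probes of the family did not always read alike. The probes u201775 and u201771 are shown because they differ by a single base, in capitals below. This is T21A, with the base of u201771 first and positions counted from 1 at the 5′ end of the probe.
u201775: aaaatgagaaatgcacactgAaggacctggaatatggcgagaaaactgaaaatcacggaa
u201771: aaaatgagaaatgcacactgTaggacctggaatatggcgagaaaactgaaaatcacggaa

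The interaction was -1.11 in u201775 (SE 0.12, adjusted p = 0.0361) and 0.16 in u201771 (adjusted p = 0.872). With TLR2.CD86 the arrays read 3.27 and 3.25 in the former and 3.87 and 3.87 in the latter, against 3.96 and 4.05 and 3.86 and 3.96 in unstimulated cells. The anti-CD86 arrays read 4.00 and 4.25 in u201775 and 3.91 and 2.996 in u201771, so replicate 2 of anti-CD86 stood apart in u201771 only. The difference between the probes was not tested. Another pair, u192887 and u201775 (A39G), read -1.26 and -1.11.

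A single probe, u180979, has a sequence that resembles the minor satellite, and no other probe of the array shares 16 bases with it.
u180979: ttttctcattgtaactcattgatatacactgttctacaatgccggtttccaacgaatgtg

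Its signal was -0.43 and -0.57 in unstimulated cells, -0.10 and 0.03 with Pam2CSK4, -1.46 and -1.46 with anti-CD86 and -2.96 and -2.97 with TLR2.CD86. TLR2.CD86 was thus the lowest condition and anti-CD86 the next, with no overlap between conditions. The interaction was -1.97 (SE 0.13, adjusted p = 0.00672).

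**Figure D2:**
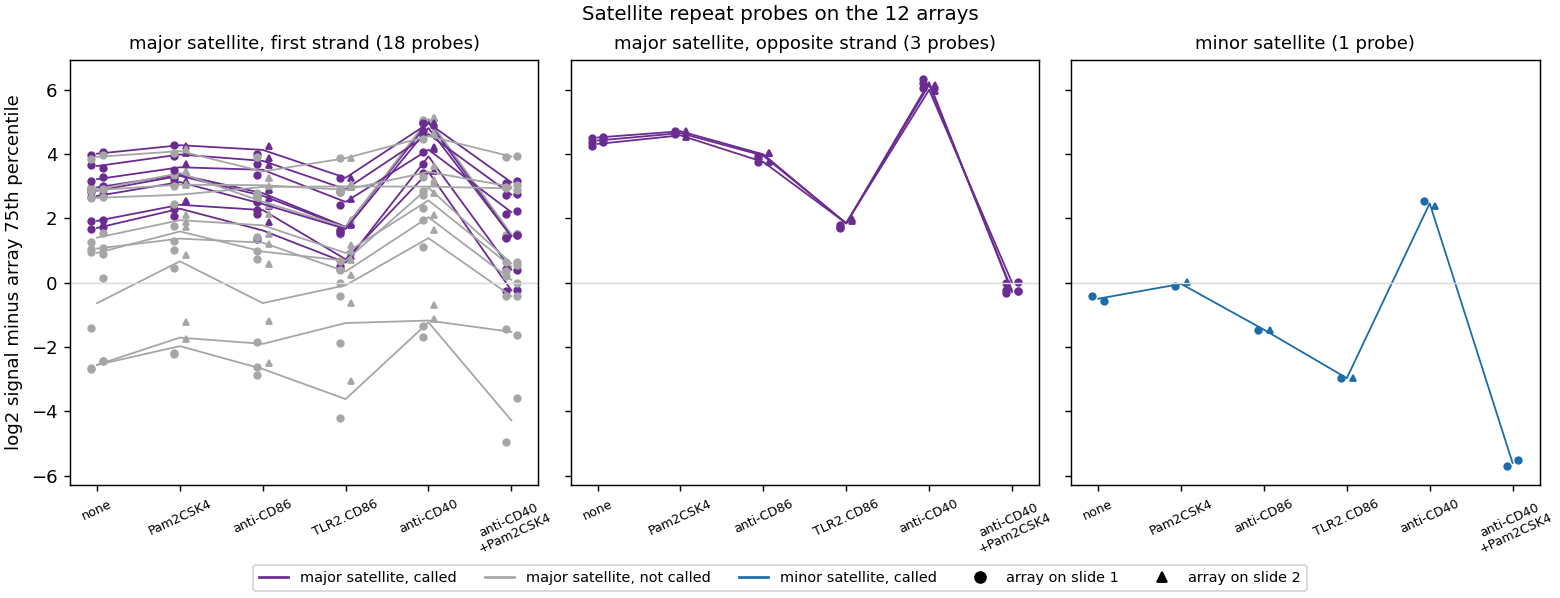
Log2 signal minus the 75th percentile of the array (y axis) of the satellite probes in the 6 conditions (x axis), with a point per array (circles on slide 1, triangles on slide 2) and a line through the condition means. In the middle panel the 3 opposite-strand probes fall from 3.75 to 4.71 in the first 3 conditions to 1.70 to 1.98 with TLR2.CD86, and in the right panel the minor satellite probe reads lowest with anti-CD40 and Pam2CSK4, where it was not well above background.

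Of the 16 probes above the sum that were not noncoding RNA probes, 14 had a level in all 4 conditions, that is, were well above background on at least 1 array of each. The farthest that was well above background on all 8 arrays was Med1, a subunit of the Mediator complex that connects transcription factors with RNA polymerase II. The log2 signal of Med1 was -0.47 and -0.47 in unstimulated cells, -0.08 and -0.25 with Pam2CSK4, -1.67 and -1.66 with anti-CD86, and 1.02 and 0.87 with TLR2.CD86. The 4 conditions did not overlap: anti-CD86 alone was the lowest and the combination the highest. The interaction was 2.26 (SE 0.09, limma adjusted p = 0.00328), it was 2.29 on slide 1 alone, and TLR2.CD86 exceeded Pam2CSK4 by 1.095 on slide 1 and by 1.12 on slide 2. Med1 passed in 19 of 22 alternative settings, and whichever of the 9 single arrays tried was left out.

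Rmrp, the RNA component of the RNase MRP complex that processes ribosomal RNA precursors, was highest in unstimulated cells (4.55 and 4.52). It read 3.98 and 3.63 with Pam2CSK4, 3.23 and 2.84 with anti-CD86, and 4.12 and 3.72 with TLR2.CD86. The TLR2.CD86 arrays lay at the level of Pam2CSK4 and above anti-CD86 alone by 0.89 and 0.88 on slides 1 and 2. The interaction was 1.41 (SE 0.09, adjusted p = 0.00536), and with median normalization 1.20 (adjusted p = 0.391).

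Ifnar2 encodes a chain of the receptor for type I interferons. Its called probe read 3.82 and 3.85 in unstimulated cells, 3.99 and 3.71 with Pam2CSK4, 3.15 and 2.85 with anti-CD86, and 4.40 and 4.02 with TLR2.CD86. Anti-CD86 alone was the lowest condition and TLR2.CD86 the highest. The interaction of Ifnar2 was 1.04 (SE 0.09, adjusted p = 0.0157). The probes of the gene disagreed, since a second probe of similar brightness gave -0.02 (SE 0.08, adjusted p = 0.921). Plagl2, a zinc finger transcription factor, read highest in the combination. It read 1.58 and 1.53 unstimulated, 2.21 and 1.90 with Pam2CSK4, 1.43 and 1.30 with anti-CD86, and 2.93 and 2.76 with TLR2.CD86, and its interaction was 0.88 (SE 0.08, adjusted p = 0.0258).

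Without the slide block the limma adjusted p was 0.418 in Rmrp, 0.569 in Ifnar2 and 0.439 in Plagl2. Other coding genes above the sum were dim or differed more between the slides. Olfr259, an olfactory receptor gene, had a fitted interaction of 2.89 (SE 0.24, adjusted p = 0.0157), which rests on anti-CD86 arrays of which only 1 of 2 was well above background. Its signal was low, at -3.00 and -2.63 unstimulated, -2.45 and -0.80 with Pam2CSK4, -5.31 and -4.16 with anti-CD86 and -2.28 and -0.55 with TLR2.CD86. In each stimulated condition the slide 2 array was the higher (1.53 in the fit), and without the slide block the adjusted p was 0.969. The same held for Tm4sf4, a membrane protein of the tetraspanin-like L6 family, with an interaction of 2.19 (SE 0.24, adjusted p = 0.0385, and 0.969 without the block). Cpxm2, a member of the metallocarboxypeptidase family, read -0.69 and -0.84 unstimulated and was lower in every stimulated condition. It read -2.05 and -1.98 with Pam2CSK4, -3.19 and -2.82 with anti-CD86 and -2.39 and -2.48 with TLR2.CD86, so that its interaction of 1.90 (SE 0.17, adjusted p = 0.0200) marks a combination that was less low than the sum.

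Es1 is the name of the array for Ces1c, a carboxylesterase made by the liver and secreted into plasma. It read 0.41 and 0.32 unstimulated, -0.46 and -0.55 with Pam2CSK4, -1.001 and -1.11 with anti-CD86 and -0.69 and -1.03 with TLR2.CD86. All stimulated arrays were below the unstimulated ones, and the interaction was 0.96 (SE 0.11, adjusted p = 0.0438). A dimmer probe of Es1 gave 0.49 (adjusted p = 0.513). The summed signal of liver markers was also highest in unstimulated cells. Alb, Apoa2, Fgb and Ahsg read lower on each of the 6 stimulated arrays than on both unstimulated ones. Alb read 2.20 and 2.16 unstimulated and 1.25 to 1.77 stimulated. Not every liver marker followed. Apoa1 read -1.68 and -2.08 unstimulated, -1.90 and -2.20 with Pam2CSK4 and -1.61 and -1.91 with TLR2.CD86. Trf read -1.01 and -0.78 unstimulated, -0.82 and -0.85 with Pam2CSK4 and -1.37 and -0.93 with TLR2.CD86. Of 9 liver markers on the array 6 or 7 were well above background on the 8 arrays, Alb among them, whereas Ttr and Fga were on none. Their summed signal was 14.7 to 15.0 in unstimulated cells, 8.58 to 10.7 with Pam2CSK4, 6.98 to 8.26 with anti-CD86 and 7.14 to 8.72 with TLR2.CD86. The 7 liver markers tested had a median interaction of 0.60, with 0 called and 2 above the sum at an unadjusted p under 0.05. Their part in the value of Es1 was not tested.

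The 5 remaining names above the sum, LOC100044930 (1.31), Gm2527 (1.23), Gm5858 (0.99), LOC100044219 (0.91) and B230112C05Rik (0.88), are predicted or uncharacterised loci. Gm2527 shares a stretch of 16 bases or more with the noncoding RNA probe u192077, which was called at 0.84. Tlr4, the receptor for lipopolysaccharide, was also called. It and B230112C05Rik fell outside the rule for named genes and were named after their values had been seen. Tlr4 read -1.38 and -1.34 unstimulated and between -2.03 and -1.59 on the 6 stimulated arrays, with an interaction of 0.74 (SE 0.09, adjusted p = 0.0438). Beside these 14, Gm10693 and Ehbp1 were called but were below background in at least 1 condition.

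**Figure D3:**
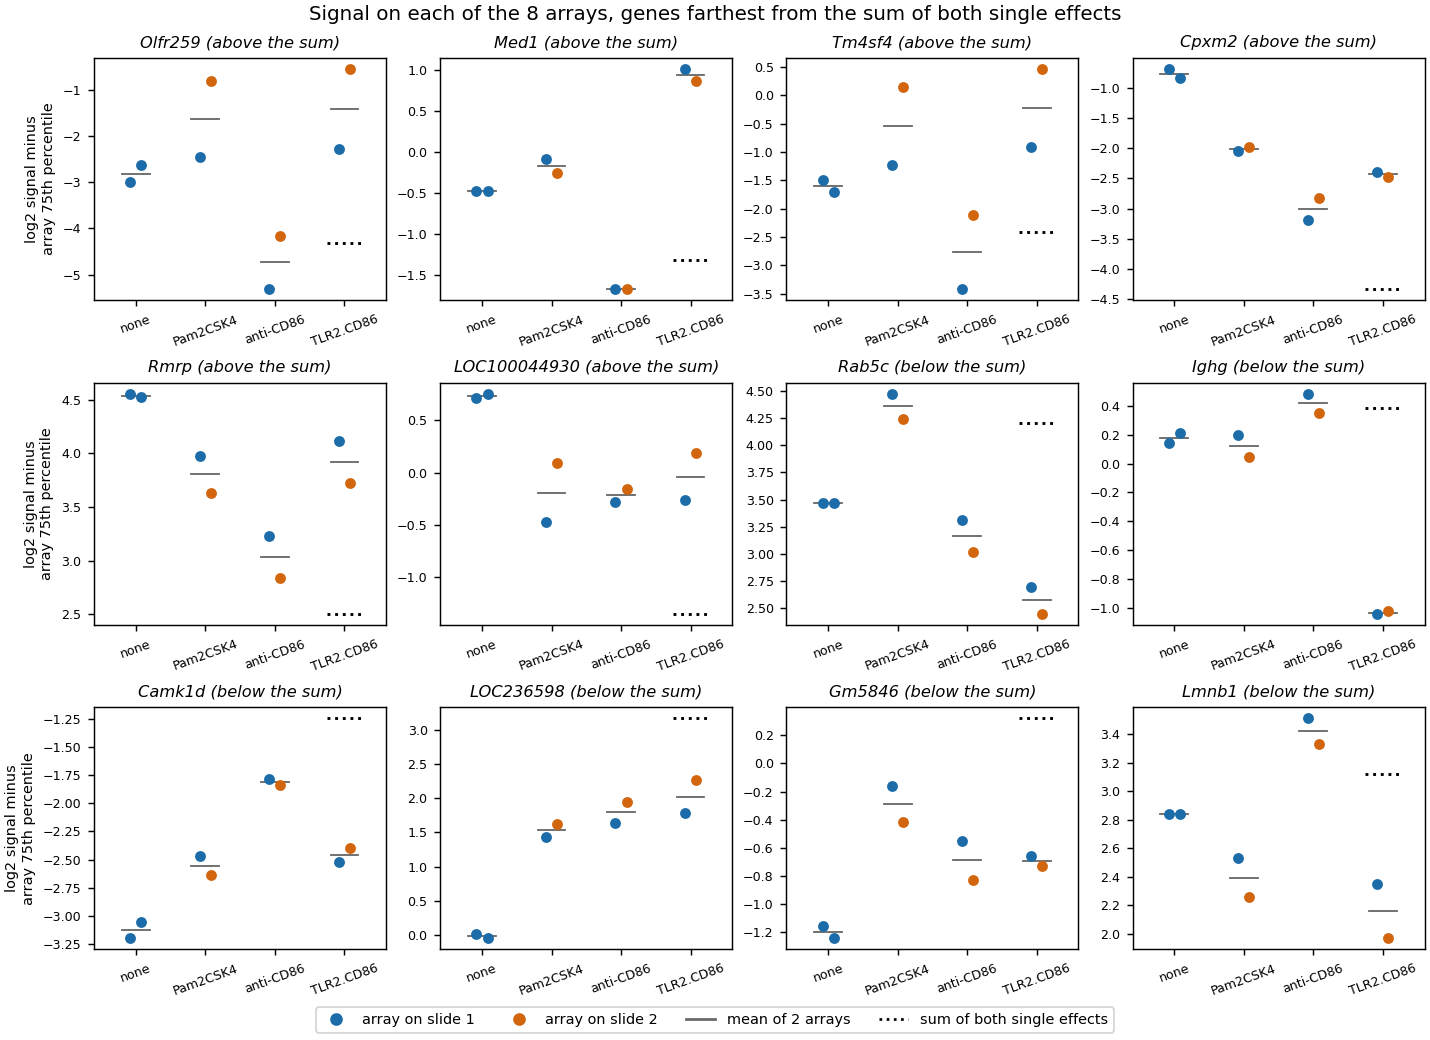
Log2 signal minus the 75th percentile of the array (y axis) on each of the 8 arrays for the 6 named genes farthest above the sum and the 6 farthest below it, by condition (x axis). Points are arrays (blue on slide 1, orange on slide 2), grey bars are means of 2 arrays, and the dotted line marks where TLR2.CD86 would lie at the sum of both single effects; in Med1 the TLR2.CD86 arrays (1.02 and 0.87) lie above it and in Rab5c (2.69 and 2.44) below it.

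Below the sum, 18 called probes were not noncoding RNA probes, and 16 of them had a level in all 4 conditions. Rab5c, a small GTPase of early endosomes, was the farthest of them. It read 3.46 and 3.47 in unstimulated cells, 4.48 and 4.25 with Pam2CSK4, 3.31 and 3.01 with anti-CD86, and 2.69 and 2.44 with TLR2.CD86. Pam2CSK4 alone was thus the highest condition and the combination the lowest, without overlap. The interaction of Rab5c was -1.64 (SE 0.08, limma adjusted p = 0.00409), and it was -1.63 on slide 1 alone. TLR2.CD86 differed from Pam2CSK4 by -1.79 on slide 1 and -1.80 on slide 2. The call held whichever of the 9 single arrays tried was left out, and without the slide block the adjusted p was 0.281.

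Ighg, the immunoglobulin gamma heavy chain, had a called probe at 0.14 and 0.21 unstimulated, 0.20 and 0.05 with Pam2CSK4, 0.48 and 0.35 with anti-CD86 and -1.04 and -1.03 with TLR2.CD86. Both TLR2.CD86 arrays lay below the 6 others, and the interaction was -1.42 (SE 0.11, adjusted p = 0.0133). A second and brighter Ighg probe gave -0.14 (SE 0.10, adjusted p = 0.504). Immunoglobulin genes are a family of near-identical copies, so which transcript a probe reads is uncertain.

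Lmnb1, the nuclear lamina protein lamin B1, and Ube2s, a ubiquitin-conjugating enzyme that works with the anaphase-promoting complex, also had their lowest mean in the combination. Lmnb1 was at 2.84 and 2.84 unstimulated, 2.53 and 2.26 with Pam2CSK4, 3.51 and 3.33 with anti-CD86 and 2.35 and 1.97 with TLR2.CD86. Anti-CD86 alone was the highest condition, and the combination overlapped with Pam2CSK4 alone. Its interaction was -0.97 (SE 0.09, adjusted p = 0.0242). Ube2s was at 3.78 and 3.76 unstimulated, 3.61 and 3.25 with Pam2CSK4, 3.49 and 3.12 with anti-CD86 and 2.56 and 2.24 with TLR2.CD86. Both TLR2.CD86 arrays were the lowest, and the interaction was -0.75 (SE 0.09, adjusted p = 0.0443, and 0.969 without the slide block).

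In the second set each signal alone was higher than unstimulated cells, and the combination lay above them by less than the sum. Pim2 is a serine/threonine kinase that favours survival of lymphocytes. Its called probe read 0.77 and 0.71 unstimulated, 1.79 and 1.51 with Pam2CSK4, 1.94 and 1.67 with anti-CD86, and 2.33 and 1.88 with TLR2.CD86. TLR2.CD86 exceeded anti-CD86 by 0.39 and 0.22 on slides 1 and 2, and the interaction was -0.78 (SE 0.09, adjusted p = 0.0476). Without the slide block the limma adjusted p of this probe was 0.969. The 2 brighter probes of Pim2 gave -0.52 and -0.48 (adjusted p = 0.0790 and 0.174). The probe LOC236598 belongs in RefSeq to Rn28s1, a ribosomal RNA of the large subunit. It read 0.02 and -0.05 unstimulated, 1.43 and 1.63 with Pam2CSK4, 1.64 and 1.94 with anti-CD86 and 1.78 and 2.26 with TLR2.CD86, and its interaction was -1.15 (SE 0.11, adjusted p = 0.0301).

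Pygo2, a Wnt pathway coactivator, had an interaction of -0.76, Brd8, a bromodomain subunit of a histone acetyltransferase complex, of -0.69, and Lysmd1 of -0.72. In these 3 genes anti-CD86 alone read highest in the fit, 0.95 to 1.18 above unstimulated cells, and TLR2.CD86 was 0.68 to 1.07 above. Without the slide block their limma adjusted p was 0.969 in Pygo2 and Lysmd1 and 0.835 in Brd8. Lysmd1 had a brighter probe at -0.11 (adjusted p = 0.592) and another at -0.56 (adjusted p = 0.184), and a second probe of Brd8 gave -0.54 (adjusted p = 0.111). Camk1d, a calcium/calmodulin-dependent kinase, was dim, with -3.20 and -3.05 unstimulated, -1.79 and -1.84 with anti-CD86 and -2.52 and -2.40 with TLR2.CD86. Its interaction was -1.21 (SE 0.14, adjusted p = 0.0405). Neither of the other Camk1d probes passed, at -0.18 and 0.12 (adjusted p = 0.768 and 0.937). The predicted loci Gm5846 (-1.02) and Gm5856 (-0.67) completed the 12. A second probe of Gm5856 gave -0.32 (adjusted p = 0.632).

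The remaining 4 called genes outside the rule, named after their values had been seen, had the smallest departures below the sum. They were Axin1, a scaffold that restrains beta-catenin (-0.59), Rpn2, an oligosaccharyltransferase subunit (-0.59), Erlin2, a protein of the endoplasmic reticulum membrane (-0.61), and Ewsr1, an RNA-binding protein (-0.65). The brightest probe was not called in Rpn2 (-0.01, adjusted p = 0.971) or Ewsr1 (-0.30, adjusted p = 0.181). Prdm2 and Lalba were called but were below background in unstimulated cells.

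The largest sizes of all were those of noncoding RNA probes, which the array lists by transcript number and does not name. Probes u178229, u182895 and u197742 were above the sum by 6.65, 5.99 and 5.93 (SE 0.755, 0.636 and 0.448). In u178229 the signal was 2.72 and 2.35 unstimulated, 4.33 and 6.11 with Pam2CSK4, -3.27 and -3.31 with anti-CD86 and 4.36 and 6.45 with TLR2.CD86. In u182895 it was 3.72 and 3.22, 4.43 and 6.24, -2.19 and -1.47, and 4.64 and 6.16, and in u197742 it was 1.95 and 2.01, 3.02 and 4.28, -3.76 and -3.43, and 2.90 and 4.07, in the same order. All 3 were lowest on both anti-CD86 arrays and stood with TLR2.CD86 at the level of Pam2CSK4 alone. Their slide 2 arrays were the higher with Pam2CSK4 and with TLR2.CD86, and without the slide block their adjusted p was 0.238 to 0.418. Probe u192973 had a smaller and steadier departure of 1.52 (SE 0.09, adjusted p = 0.00521), with 3.99 and 3.89 unstimulated, 3.50 and 3.42 with Pam2CSK4, 2.45 and 2.47 with anti-CD86 and 3.51 and 3.53 with TLR2.CD86. Probe u199188 departed by 2.62 (SE 0.13, adjusted p = 0.00409). It was highest in unstimulated cells, at -1.48 and -1.39, and lower in all stimulated conditions.

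Below the sum, u200009 read -2.04 and -3.11 unstimulated, 4.79 and 5.84 with Pam2CSK4, 3.99 and 5.20 with anti-CD86 and 5.40 and 6.61 with TLR2.CD86, an interaction of -5.95 (SE 0.63, adjusted p = 0.0328). Probe u182032 read 1.40 and 1.63, 4.26 and 4.75, 5.68 and 6.26, and 5.96 and 6.61, an interaction of -2.35 (SE 0.145, adjusted p = 0.00555). In both, each single signal alone was far above unstimulated cells and the combination had the highest mean. Their sign depends on the scale, since the departure from the sum of the linear differences was positive (15.1 in u200009 and 5.16 in u182032, in multiples of the 75th percentile). For the other 72 called probes the log2 and linear scales gave the same sign.

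In 14 lists of pathways and cell functions, 260 genes were tested, each by its brightest probe. Of these 1 was called, Rab5c (0.385%), against 25 of all 16786 genes (0.149%), so the count of calls does not set the lists apart. At an unadjusted p under 0.05, 8.64% of all genes lay above the sum and 7.36% below it, and 57.3% of all genes had an interaction above 0. The member counts at that threshold are a description to be read against these shares. In the list of TLR2 and MyD88 signalling 0 of 16 genes were called (1 above and 4 below at an unadjusted p under 0.05). The median interaction of this list was -0.16, and 2 of the 16 were above 0, against a median of 0.04 over all genes. The adaptor Myd88 was at -0.39 (adjusted p = 0.153), the kinase Irak1 at -0.33 (adjusted p = 0.175), the ubiquitin ligase Traf6 at -0.30 (adjusted p = 0.192) and Tlr2 itself at 0.26 (adjusted p = 0.243).

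Among NF-kB subunits, inhibitors and targets 0 of 23 were called (median -0.03, 1 above and 4 below at an unadjusted p under 0.05). Saturated spots were kept, which can flatten the brightest probes. Nfkbia and Cd83 of this list and Junb of the immediate early genes each read 7.39 on anti-CD86 replicate 2. The B cell marker Cd79b read the same there, so these signals may lie at the ceiling of the scanner and hide a departure. Nfkbiz, an atypical inhibitor, was 1.91 above unstimulated cells with Pam2CSK4 and 1.68 with TLR2.CD86 in the fit, with an interaction of -0.38 (adjusted p = 0.173). Icam1, an adhesion molecule, was 1.54 above with Pam2CSK4, 0.78 with anti-CD86 and 1.91 with TLR2.CD86, with -0.41 (adjusted p = 0.150). In the list of survival and apoptosis genes 0 of 21 were called by the brightest probe, with 1 above and 8 below at an unadjusted p under 0.05 and a median of -0.16. Besides Pim2, Pim1 was at -0.47 (adjusted p = 0.128) and Pim3 at -0.54 (adjusted p = 0.143). In the 20 cytokines and chemokines the median was 0.16, with 0 called and 5 above and 2 below at an unadjusted p under 0.05. The chemokine Ccl4 was at 0.56 (adjusted p = 0.0777) and the gp130 cytokine Clcf1 at -0.67 (adjusted p = 0.111).

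The endocytosis list held Rab5c and 0 further calls among its 25 genes, with a median of -0.03. Counts at an adjusted p under 0.05 were 0 in 23 immediate early genes (median 0.05), 20 B cell activation and costimulatory molecules (0.06), 18 interferon-stimulated genes (0.01) and 18 genes of Myc and ribosome biogenesis (-0.09). They were also 0 in 15 genes of the unfolded protein response (-0.11), 19 of B cell receptor signalling (-0.02), 19 of B cell and plasma cell fate (0.03), 15 of glycolysis (-0.06) and 14 of cholesterol synthesis (0.02). At an unadjusted p under 0.05, limma placed between 0 and 3 genes of each of these 9 lists above the sum and between 0 and 3 below it.

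Whether a departure differed from that of another costimulatory signal was tested against anti-CD40. The interaction of anti-CD40 with Pam2CSK4 shares the unstimulated and Pam2CSK4 arrays with that of anti-CD86, so the values are given side by side and only their difference, in which the shared arrays drop out, was tested. This difference passed in 2342 probes (7.41%), 1021 with the CD86 value higher (3.23%) and 1321 with it lower (4.18%). The share with it higher was 43.6%, and 54.0% with median normalization. The count was 261 without the slide block and 12 on slide 1 alone. It was 485 and 886 without TLR2.CD86 replicate 1 and 2, 615 without anti-CD86 replicate 2, 1556 without anti-CD40 replicate 2, and 878 and 911 without replicate 1 and 2 of anti-CD40 with Pam2CSK4. The difference passed in 18 of the 41 probes above the sum and 25 of the 33 below it, and this test shares the anti-CD86 and TLR2.CD86 arrays with the calls. In Rab5c the interaction was -1.64 with anti-CD86 and 1.44 (SE 0.09) with anti-CD40, a difference of -3.08 (SE 0.08, adjusted p = 2.83e-05). Rab5c read 3.17 and 2.76 with anti-CD40 and 5.60 and 5.59 with anti-CD40 and Pam2CSK4. In Ube2s the values were -0.75 and 2.26 (difference -3.01, SE 0.09, adjusted p = 2.83e-05) and in Lmnb1 -0.97 and 0.90 (difference -1.87, SE 0.09, adjusted p = 0.000249). By their means the combination was, in these 3 genes, the lowest condition with anti-CD86 and the highest of all 6 with anti-CD40.

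Med1 was above the sum with both antibodies, at 2.26 and 2.68 (SE 0.10), and the anti-CD40 value was the larger (difference -0.43, SE 0.09, adjusted p = 0.0433). Med1 read -1.07 and -1.12 with anti-CD40 and 2.02 and 1.95 with anti-CD40 and Pam2CSK4. Rmrp departed more with anti-CD86, at 1.41 against 0.56 (difference 0.85, SE 0.09, adjusted p = 0.00455), and Ighg at -1.42 against -0.13 (difference -1.29, SE 0.11, adjusted p = 0.00286). Es1 read -4.22 and -4.21 with anti-CD40 and Pam2CSK4, not well above background on either array, so its CD40 values are bounds. With these arrays set at the lowest signal well above background, the interaction was 0.96 with anti-CD86 and at most -2.48 with anti-CD40, and the difference at least 3.44 (4.03 as measured, adjusted p = 2.83e-05). On the same arrays the summed liver markers were lowest, at 0.900 and 1.103, with 2 to 5 of 9 well above background.

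The satellite probes departed further with anti-CD40. In u205730 the interaction was -2.32 with anti-CD86 and -6.66 (SE 0.16) with anti-CD40, a difference of 4.34 (SE 0.15, adjusted p = 5.75e-05). This probe read 6.32 and 6.14 with anti-CD40, above all other conditions, and -0.31 and -0.27 with anti-CD40 and Pam2CSK4, below all others. The minor satellite probe u180979 read 2.54 and 2.40 with anti-CD40, and was not well above background on either array with both (-5.68 and -5.52). Bounded in the same way, its interaction was at most -6.56 with anti-CD40 against -1.97 with anti-CD86, and the difference at least 4.59 (6.56 as measured, adjusted p = 8.97e-06). The difference passed in 11 of the 18 major satellite probes in the orientation of u180980 and in 3 of 3 of the opposite strand. Neither anti-CD40 with Pam2CSK4 array lies on slide 2, and the CD40 interaction, like that of CD86, cannot be computed there.

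**Figure D4:**
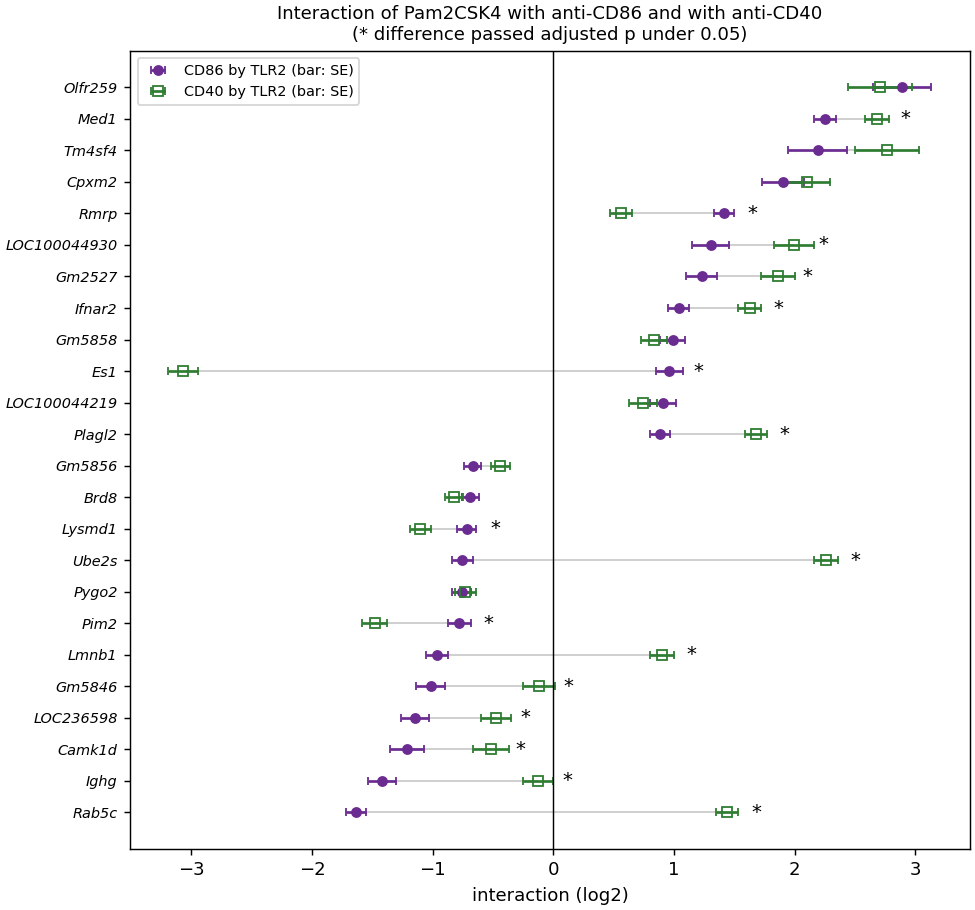
Interaction with Pam2CSK4 on the log2 scale (x axis) for the 24 named genes (y axis), with filled circles for anti-CD86, open squares for anti-CD40 and bars for the SE. An asterisk marks genes whose difference passed at an adjusted p under 0.05, and the symbols lie on opposite sides of 0 in Es1, Ube2s, Lmnb1 and Rab5c. The anti-CD40 symbol of Es1 is drawn as measured, with arrays not well above background, and stands for at most -2.48.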

How the data were processed

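RNA of RB cells was labelled with Cy3 and hybridised by the authors to a custom Agilent mouse array designed on mm9, and the images were read with Feature Extraction. The deposited scanner files hold the processed signal intensity of each spot, corrected for background within the array and not normalized between arrays. The deposited log2 value table was, per array, the log2 processed signal minus a constant, and was used as an alternative. Here each array's 75th percentile was subtracted from its log2 signals. Control spots and outlier spots (5 to 35 per array) were left out, saturated spots (987 to 1206) were kept and spots of a probe averaged; 0 of the called probes were saturated. Of 61307 probes, 31672 exceeded background clearly on both arrays of at least 1 condition, and 70 of these with a missing value were left out. Tests used limma 3.58.1 (R 4.3.3) over all 12 arrays with slide as a fixed block (5 residual and 1.54 prior degrees of freedom), and Benjamini-Hochberg adjustment over 31602 probes. The code was tested on simulated data.

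The slide is the one in the array barcode. The labels do not tell how the 2 arrays of a condition relate. The paper describes its microarray data as coming from 2 biological replicates, without saying whether these were separate mice or separate cultures. The p-values measure only the spread between the 2 arrays of a condition, pooled over the 6 conditions after the slide difference was removed. That number of arrays limits the precision. Named genes were called probes with a symbol, no noncoding RNA probe, with a level in each of the 4 conditions and not saturated: the 12 highest and 12 lowest interactions, 1 probe per gene, with other probes where they differed, and called members of the lists; probes without a level in a condition were counted only. Members, lists and the rule were chosen with earlier results of these data known. Symbols are those of the files; 28128 of 40628 other than noncoding probes matched RefSeq (GRCm38.p6, names only). Figures used Python 3.11.15 and matplotlib 3.10.9. Alternatives were the slide and replicate blocks, other sets of arrays, normalization, background correction, probe filters and single arrays left out. For the CD86 interaction the arrays left out were each of its 8 and anti-CD40 replicate 2.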

Additional observations from a re-analysis of the deposited data

Results flagged for a closer look

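The interaction with anti-CD86 was set against that with anti-CD40, and their difference passed in 2342 of the probes tested. Among the named genes it passed in 16 (CD86 value minus CD40 value, log2). Their sizes depend on the normalization, since median normalization shifts all these values by the same amount. The difference was positive in Es1 (4.03 as measured, and at least 3.44, since it was not well above background on either anti-CD40 with Pam2CSK4 array), Rmrp (0.85), Pim2 (0.70) and Lysmd1 (0.38). It was negative in Rab5c (-3.08), Ube2s (-3.01), Lmnb1 (-1.87), Ighg (-1.29), Gm5846 (-0.90), Plagl2 (-0.79), Camk1d (-0.70), LOC100044930 (-0.69), LOC236598 (-0.67), Gm2527 (-0.63), Ifnar2 (-0.59) and Med1 (-0.43). The summed liver markers were lower on the anti-CD40 with Pam2CSK4 arrays, as was Es1, and their part in its value was not tested.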

How the results depend on the processing

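Over 22 other settings all 1617 values of the 74 called probes kept their sign on the log2 scale; on the linear scale only u182032 (5.16) and u200009 (15.1) reversed. The 74 calls of the CD86 interaction became 6 without the slide block, 0 with the 8 arrays or slide 1 alone and 0 with no filter on dim probes (limma; 5348, 3876 and 4054 at an unadjusted p under 0.05), 141 with quantile normalization, 164 with normexp, 267 with probes well above background on all 12 arrays, and 11 to 72 with 1 array left out (38 without anti-CD40 replicate 2, an alternative chosen after seeing the data). Median normalization gave 73, of which 22 were shared. The 2342 calls of the difference from the CD40 interaction became 261 without the slide block, 12 on slide 1, 398 with median normalization, 240 with no filter, and 485 to 2063 with 1 array left out. The cause was not tested, beyond fewer arrays or other probes tested.

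In the conditions that span both slides the replicate number is also the slide, so pairing by replicate cannot be told apart from the slide there. Deviations correlated at 0.54 to 0.67 between these conditions and at -0.11 to 0.07 otherwise. Unstimulated and anti-CD40 with Pam2CSK4, the pair with all arrays on slide 1, gave 0.07. A replicate block in place of the slide block gave 10 and 503 calls, and a replicate block with the slide block 22 and 1277. Signals near background limit the dim probes, and only 2 arrays per condition the rest.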
